A study of Mus musculus with 4 samples.

Results

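The genes described here are 10 genes of osteoclasts and of the RANKL signalling axis: the ligands Tnfsf11 (RANKL) and Csf1 (M-CSF), the receptor Tnfrsf11a (RANK), the soluble decoy Tnfrsf11b (osteoprotegerin), the transcription factor Nfatc1, and the effector genes Acp5, Ctsk, Atp6v0d2, Ocstamp and Dcstamp. They were taken by name from the 32285 genes of the deposited tables, and all 10 had at least 1 UMI (a count of 1 tagged RNA molecule) in each of the 4 libraries. The libraries are single-cell RNA-seq of the second phalanx (P2) of the mouse digit: 1 from uninjured digits, labelled homeostatic, and 1 each from digits at 12, 17 and 28 days post-amputation (dpa), labelled fibrosing. P2 amputated midway is a level at which the mouse digit heals with scar and does not regrow. The mice were wild-type FVB/NJ, 8 weeks old and labelled as a pool of males and females, with no allele or agent that differed between groups. The number of animals behind a library is not given in the sources used here. Each group is 1 library, so no difference below has a replicate check, no test between groups was possible, and the intervals printed (95%) cover counting error only.

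Osteoclasts are multinucleated bone-resorbing cells formed by fusion of cells of the monocyte-macrophage lineage. M-CSF keeps the precursors alive, RANKL on osteoblast-lineage and other stromal cells binds RANK on the precursor, and osteoprotegerin binds RANKL and keeps it from RANK. RANK signalling induces NFATc1, which turns on the genes of fusion (Dcstamp, Ocstamp, Atp6v0d2) and of resorption (Acp5, Ctsk). After digit amputation, osteoclasts resorb bone at the stump.

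Promoter windows in RefSeq's table (GRCm38.p6, the build of mm10) were found for 5 of the 10 genes. The 3 shown are those of Acp5 and Ctsk, resorption genes that shared the osteoclast-like cells described further on, and of Tnfsf11, which had no UMI in those cells. Each is the 250 bases before an annotated start, read 5′ to 3′ on the gene's strand. Capitals mark matches, on either strand, to GGAAA (the core of NFAT sites), GAGGAA (a PU.1-type ETS site, which can share GGAA with the first) and TCATGTG (an MITF-type E-box).
Acp5 (chr9:22130599-22130848, minus strand, before the last of 3 listed starts): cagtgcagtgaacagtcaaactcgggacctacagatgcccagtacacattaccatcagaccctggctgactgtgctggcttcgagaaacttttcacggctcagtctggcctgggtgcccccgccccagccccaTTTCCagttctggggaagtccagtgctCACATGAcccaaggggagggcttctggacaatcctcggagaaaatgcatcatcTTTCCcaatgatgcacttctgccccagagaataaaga
Ctsk (chr3:95498960-95499209, plus strand): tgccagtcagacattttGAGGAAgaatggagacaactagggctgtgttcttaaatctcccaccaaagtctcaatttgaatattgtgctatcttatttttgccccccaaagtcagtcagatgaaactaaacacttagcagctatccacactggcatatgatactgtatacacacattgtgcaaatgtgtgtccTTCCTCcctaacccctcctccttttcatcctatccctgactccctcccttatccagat
Tnfsf11 (chr14:78308044-78308293, minus strand): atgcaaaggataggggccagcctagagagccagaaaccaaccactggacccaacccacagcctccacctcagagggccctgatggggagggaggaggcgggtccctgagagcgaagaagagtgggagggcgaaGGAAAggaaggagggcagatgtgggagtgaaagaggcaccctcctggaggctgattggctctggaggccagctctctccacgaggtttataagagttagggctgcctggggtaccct
The Acp5 window shown held 2 matches to GGAAA and 1 to TCATGTG, the Ctsk window 2 to GAGGAA, and the Tnfsf11 window 1 to GGAAA. The other 2 Acp5 windows held 1 GGAAA each and no TCATGTG, the Csf1 window held 3 GGAAA, and the Tnfrsf11a window held no match. Over 32851 windows of the same length, 55.6% held GGAAA, 23.3% GAGGAA and 3.25% TCATGTG. A further motif, TGANTCA (AP-1), is in 6.75% of the windows and in none of the members' windows. These matches are letters in a window and say nothing of binding.

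After a filter on cells and removal of predicted doublets, 34951 cells remained: 10394, 6514, 7918 and 10125 in the unamputated, 12, 17 and 28 dpa libraries, the order used for every row of 4 values here. Median UMIs per cell were 11630, 9545, 8511 and 6654. The share of cells with several effector genes is therefore also given at equal depth, while shares of cells with a UMI of a single gene are not, and no order is read from those. Pairs of libraries shared 19 to 87 cell barcodes, 12 to 44 of them among kept cells. The label of pooled sexes does not match the counts: Xist had 458 CPM (counts scaled to a common total per library or class) at 12 dpa and at most 0.153 in the other libraries, and 4 Y-linked genes summed to 0.228 CPM at 12 dpa and 244 to 350.4 in the others. Every comparison of 12 dpa with another library therefore also compares sexes, and the effects cannot be told apart. The cells formed 25 clusters, found without the 10 members and the pathway genes. Classes are named "-like" from marker lists, and the rule for pooling them was made after the clusters were seen. The phagocyte pool (5 clusters of macrophage-like, monocyte-like and 2 unnamed kinds) held 2218, 1349, 1610 and 2145 cells. The mesenchymal pool (osteoblast-like, tenocyte-like and fibroblast-like cells) held 1911, 2184, 3003 and 3388.

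The 10 genes divided between these pools, with ligands and decoy on one side and receptor and effectors on the other. Of all Tnfsf11 UMIs, 89.2% came from mesenchymal cells, as did 78.2% of Tnfrsf11b. For Csf1 the mesenchymal share by library was 47.2%, 45.4%, 70.9% and 77.2%. The phagocyte pool gave 99.6% of Dcstamp, 94.6% of Ocstamp, 90.6% of Atp6v0d2, 83.6% of Tnfrsf11a and 72.4% of Acp5. Ctsk and Nfatc1 were shared. Of Ctsk UMIs 47.9%, 69.5%, 69.3% and 68.2% were mesenchymal and 47.8%, 27.5%, 28.3% and 28.6% phagocyte. Of Nfatc1 UMIs 30.9%, 51.4%, 57.5% and 55.4% were mesenchymal and 28.2%, 22.9%, 21.9% and 15.4% phagocyte, and over all libraries 12.5% were endothelial.

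**Figure D1:**
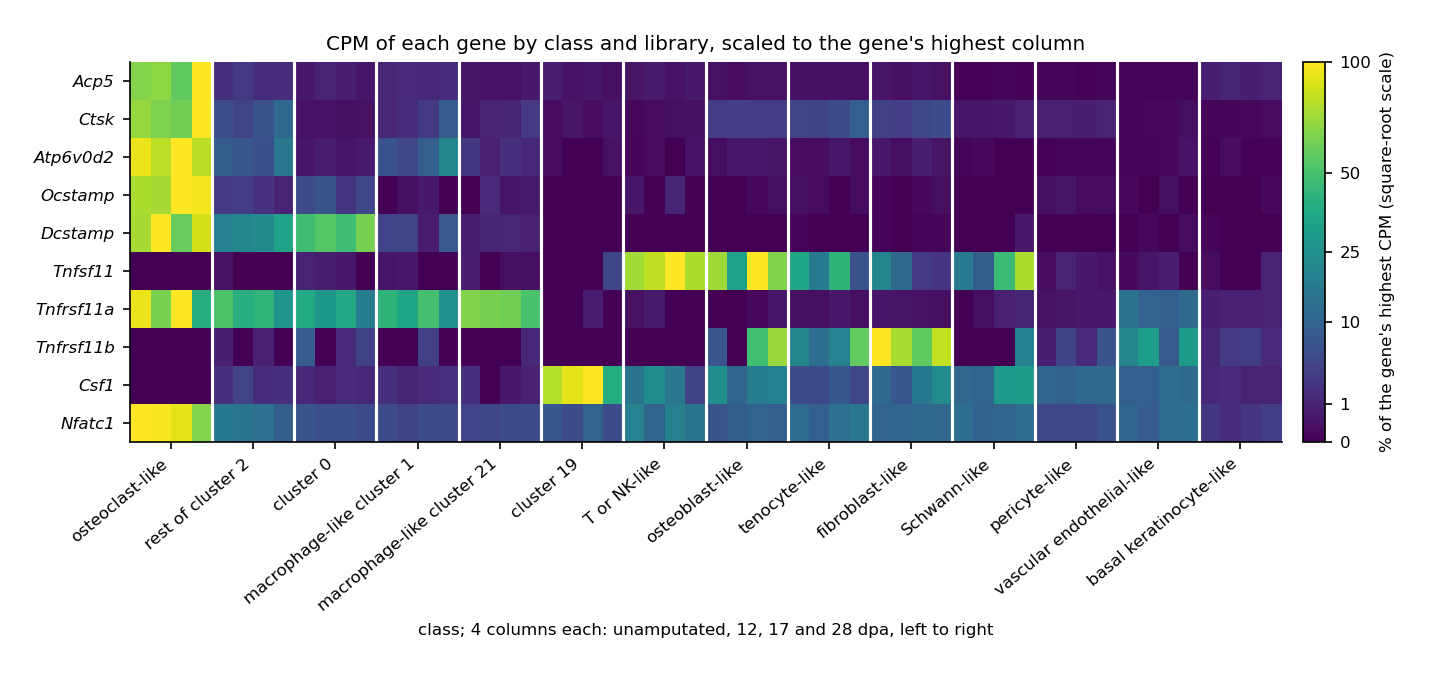
Heat map of the 10 genes (rows) in 14 cell classes with the 4 libraries side by side in each class (columns, in time order); colour gives a gene's CPM as percent of its own highest column on a square-root colour scale. Tnfsf11, Tnfrsf11b and Csf1 are brightest (highest) outside the phagocyte classes, and Acp5, Atp6v0d2, Ocstamp and Dcstamp inside them.

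Tnfsf11, the ligand that drives osteoclast formation, came mostly from mesenchymal cells, and the classes behind it differed from library to library. Over all cells it had 10.5, 7.24, 14.5 and 4.70 CPM, from 1491, 540, 1133 and 370 UMIs. It was highest at 17 dpa and lowest at 28 dpa, where it was 0.448 times the unamputated level (0.399 to 0.503). Osteoblast-like cells gave 39.4%, 3.89%, 70.4% and 58.6% of its UMIs, and tenocyte-like cells 28.8%, 68.3%, 17.6% and 6.76%. There were 465, 50, 787 and 550 osteoblast-like cells and 504, 1384, 288 and 400 tenocyte-like cells. At 12 dpa tenocyte-like cells gave 369 of the 540 UMIs, fibroblast-like cells 89 and T or NK-like cells 37. The part of class size in these shares was not tested.

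Within osteoblast-like cells, Tnfsf11 was at 62.7, 28.0, 85.1 and 56.0 CPM, and 42.4%, 22.0%, 38.5% and 22.4% of those cells had a UMI at median depths of 18166, 14744, 11079 and 6447 UMIs. Only the 12 dpa value was past the 2-fold line used throughout (0.447-fold, 0.275 to 0.690), and it rests on 21 UMIs in 50 cells, with log2 ratios of -1.13 to -0.89 under the 4 alternatives that kept 50 such cells. In those 50 cells the chondrocyte marker list summed to 2320 CPM, against 159 to 202 in the other libraries, and Dmp1, an osteocyte marker, was at 0; their part in the result was not tested. Tenocyte-like cells had 29.97, 14.3, 36.0 and 5.63 CPM, with 12 dpa at 0.476-fold (0.413 to 0.549) and 28 dpa at 0.188-fold (0.120 to 0.281). In the same cells the joint lining marker list summed to 55.9, 66.96, 182 and 495 CPM, and its part in this and in the other tenocyte-like values at 28 dpa was not tested. Fibroblast-like cells had 17.3, 9.48, 2.45 and 2.01 CPM, high in the unamputated library and low at 17 dpa (0.142-fold, 0.105 to 0.189) and 28 dpa (0.116-fold, 0.0840 to 0.158). Inside that class, cluster 9 went from 39.2 CPM in the unamputated library to 13.3, 9.44 and 5.43, and cluster 13 from 8.79 to 1.74, 1.63 and 2.001. Cluster 22 went the other way at 28 dpa, from 2.46 to 6.94 CPM (2.82-fold, 0.887 to 11.8), on 4 and 14 UMIs. Cluster 24, at 0.962 CPM at 28 dpa, held 23, 84, 118 and 904 cells, and the part of this make-up in the class values was not tested. The fibroblast-like fall at 17 and 28 dpa passed the 2-fold line under all 11 alternative settings. The split between osteoblast-like and tenocyte-like cells at 28 dpa did not hold in this way, as their log2 ratios ran from -1.23 to 0.07 and from -2.42 to -0.42 over those settings. The sum over mesenchymal cells, at 31.8, 13.3, 27.6 and 9.001 CPM, was past the line at 28 dpa (0.283-fold, 0.248 to 0.322). It was past it at 12 dpa too (0.419-fold), a call lost with median-ratio scaling.

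Outside the mesenchyme, RANKL transcripts were in T or NK-like and Schwann-like cells. T or NK-like cells, a known source of RANKL, had 63.4, 69.6, 85.3 and 65.7 CPM, a level that was never past the line in any library. Schwann-like cells had 14.8, 7.43, 39.8 and 65.6 CPM, which is 2.70-fold higher at 17 dpa (1.66 to 4.30) and 4.45-fold higher at 28 dpa (2.98 to 6.64) than in the unamputated library. These ratios rest on 53, 13, 30 and 53 UMIs, which came from 15, 4, 11 and 21 of the 270, 243, 103 and 166 Schwann-like cells. The intervals count UMIs and do not cover the spread between cells. The 17 dpa call was lost with the stricter filter on cells (log2 ratio 0.52) and with cells classed singly (0.46). At 28 dpa the Schwann-like cells gave 14.3% of all Tnfsf11 UMIs, against 3.55% in the unamputated library.

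Tnfrsf11b encodes osteoprotegerin, the decoy that blocks RANKL. Over all cells it was at 6.03, 4.77, 7.15 and 9.48 CPM, highest at 28 dpa but not past the 2-fold line. Fibroblast-like cells gave 59.7% of its UMIs at 25.8, 19.7, 14.8 and 21.3 CPM, a sum inside the line whose clusters differed. Cluster 9 was at 25.1, 10.4, 7.87 and 27.2 CPM, lower at 12 dpa (0.414-fold, 0.302 to 0.563) and 17 dpa (0.313-fold, 0.171 to 0.534). Cluster 13 was at 28.8, 47.5, 16.4 and 11.7 CPM, lower at 28 dpa (0.405-fold, 0.319 to 0.5100). Cluster 24, with 904 cells at 28 dpa, gave 378 of the 510 decoy UMIs of the class at 28 dpa. Osteoblast-like cells had 17, 0, 118 and 72 UMIs, or 1.82, 0, 12.6 and 18.6 CPM. The decoy rose in osteoblast-like cells, 6.93-fold at 17 dpa (4.15 to 12.3) and 10.2-fold at 28 dpa (5.97 to 18.5), past the line under every alternative run. In the same cells the osteoblast or osteocyte marker list summed to 6828, 7688, 13140 and 18146 CPM, and its part in this rise was not tested. Tenocyte-like cells had 5.38, 3.37, 5.07 and 14.9 CPM, 2.76-fold higher at 28 dpa (1.96 to 3.89), though 6 of 11 alternatives put it below the line. Smaller sources were cluster 7 (hair or nail keratin genes Krt25 and Krt71), vascular endothelial-like cells and vascular smooth muscle-like cells, with 181, 180 and 101 UMIs. Cluster 7 was at 17.5, 6.86, 16.6 and 3.09 CPM, lower at 12 dpa (0.392-fold, 0.203 to 0.694) and 28 dpa (0.176-fold, 0.0938 to 0.307). Vascular endothelial-like cells were at 5.43, 7.97, 2.11 and 7.60 CPM, lower at 17 dpa on 8 UMIs (0.389-fold, 0.163 to 0.797), and vascular smooth muscle-like cells had 38, 0, 25 and 38 UMIs.

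Ligand and decoy were then set against each other as the RANKL share of the UMIs of both genes, which does not depend on library size. Over all cells this share was 63.5%, 60.3%, 66.9% and 33.2%, with 28 dpa (30.4 to 36.0) apart from the unamputated library (61.5 to 65.5). Cluster 24, with 23 cells in the unamputated library and 904 at 28 dpa, gave 378 of the 746 decoy UMIs at 28 dpa. Its part in the share over all cells was not tested. In osteoblast-like cells the share was 97.2%, 100%, 87.1% and 75.1%, in tenocyte-like cells 84.8%, 80.9%, 87.7% and 27.5%, and in fibroblast-like cells 40.1%, 32.5%, 14.2% and 8.60%. Ligand outnumbered decoy in osteoblast-like cells of every library, while decoy outnumbered ligand in the fibroblast-like sum of every library. That order did not hold in each of its clusters: the share in cluster 9 was 60.9%, 56.0%, 54.5% and 16.7%, and in cluster 22, on 6, 4, 12 and 22 UMIs, 66.7%, 75%, 50% and 63.6%. Of the 558 UMIs of both genes in fibroblast-like cells at 28 dpa, 390 were in cluster 24, where the share was 3.08%. Of the 197, 11, 303 and 123 osteoblast-like cells with a Tnfsf11 UMI, 5, 0, 11 and 3 also had a UMI of Tnfrsf11b, which 9, 0, 47 and 38 osteoblast-like cells had in all. Csf1 was found in 108, 4, 131 and 36 of the cells with Tnfsf11.

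**Figure D2:**
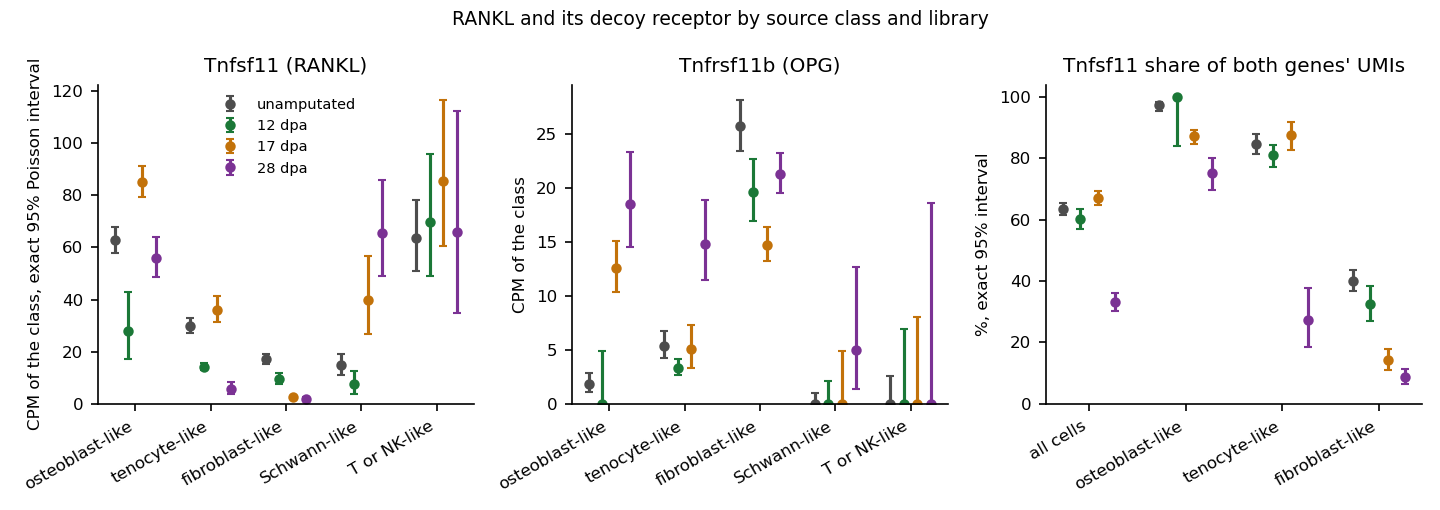
CPM of Tnfsf11 and of Tnfrsf11b by library in 5 classes with Poisson 95% intervals, and the share of Tnfsf11 in the UMIs of both genes (percent) in all cells and 3 mesenchymal classes with exact 95% intervals. The share in all cells is 60.3% to 66.9% up to 17 dpa and 33.2% at 28 dpa, and the decoy in osteoblast-like cells goes from 1.82 to 18.6 CPM.

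Csf1 encodes M-CSF, the survival factor of macrophages and osteoclast precursors, and the classes it came from differed between libraries. Over all cells it was at 31.7, 24.9, 44.1 and 44.2 CPM, lowest at 12 dpa and never past the 2-fold line. Fibroblast-like cells gave 19.3%, 15.4%, 45.5% and 65.9% of its UMIs, at 47.9, 30.6, 67.4 and 95.9 CPM, and made up 942, 750, 1928 and 2438 cells. The 28 dpa value there was a log2 ratio of 0.98, just inside the line, with 0.72 to 1.15 over the alternatives. Within the class, cluster 13 was at 53.6, 49.8, 73.2 and 138 CPM and past the line at 28 dpa (2.58-fold, 2.33 to 2.86), as was cluster 9, at 24.6, 24.2, 29.9 and 59.8 CPM (2.43-fold, 1.74 to 3.35). Cluster 22, at 90.4 and 70.9 CPM in the unamputated and 28 dpa libraries (0.785-fold), was inside it. Cluster 24, with 904 of the 2438 cells at 28 dpa, was at 73.6 CPM there. Osteoblast-like cells had 101.7, 44.1, 74.9 and 80.0 CPM, past the line only at 12 dpa (0.433-fold, 33 UMIs). The mesenchymal sum was 50.9, 23.5, 64.1 and 83.3 CPM, so that at 12 dpa Csf1 fell to 0.461-fold (0.425 to 0.4996) together with Tnfsf11. This call was lost with median-ratio scaling and with a pseudocount of 5 CPM, and the stricter filter on cells left 1 of these 2 members past the line. Fibroblast-like cells were at 0.637-fold at 12 dpa, and tenocyte-like cells, at 21.3, 20.3, 31.7 and 18.9 CPM, were at 0.951-fold. Tenocyte-like cells made up 504 of the 1911 mesenchymal cells in the unamputated library and 1384 of 2184 at 12 dpa, and the part of this make-up in the sum was not tested.

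Other sources of Csf1 were Schwann-like cells, at 44.8, 42.9, 119 and 126 CPM and past the line at 17 dpa (2.66-fold, 2.04 to 3.47) and 28 dpa (2.82-fold, 2.18 to 3.63). Pericyte-like cells, at 44.3, 39.2, 48.2 and 49.0 CPM, and vascular endothelial-like cells, at 36.5, 37.1, 52.5 and 47.9 CPM, stayed inside the line. Cluster 19, an unnamed cluster of shallow cells led by Ccrl2, was at 327, 379, 414 and 158 CPM, past the line at 28 dpa (0.483-fold, 0.344 to 0.663), and gave 6.34% of all Csf1 UMIs. T or NK-like cells were at 61.3, 97.8, 65.6 and 15.2 CPM, the last from 3 UMIs (0.248-fold, 0.0501 to 0.748). Csf1 was thus spread over more classes than Tnfsf11, and the phagocyte pool, at 4.05 to 9.54 CPM, held 3.17% of it.

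**Figure D3:**
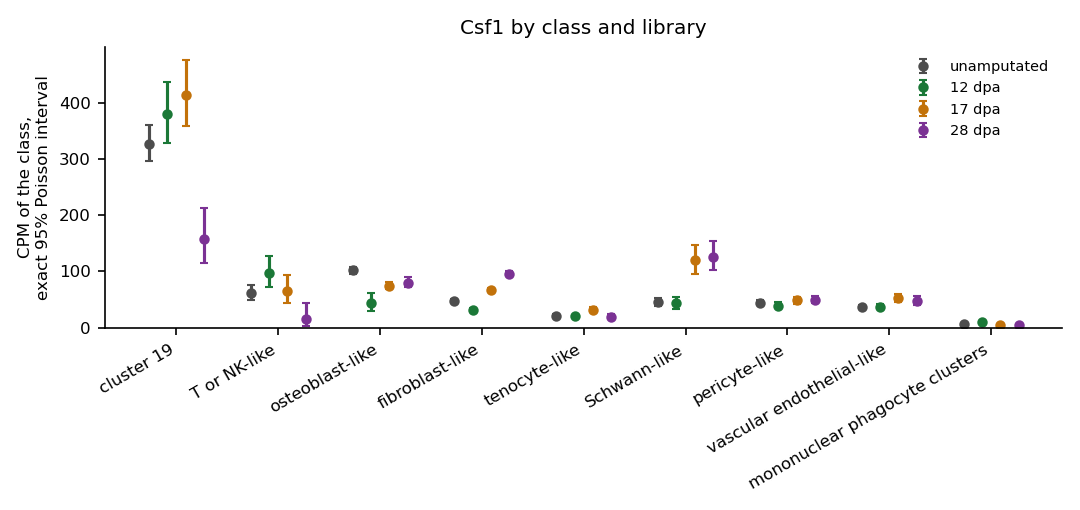
Csf1 CPM in 9 cell classes by library, with Poisson 95% intervals. Fibroblast-like cells are at 30.6 CPM at 12 dpa and 95.9 at 28 dpa, and Schwann-like cells at 42.9 and 126.

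Tnfrsf11a encodes RANK, the receptor on osteoclast precursors. In the phagocyte pool it was at 169, 130.2, 180.3 and 161 CPM, inside the 2-fold line in every library. The cells that carried it differed. Macrophage-like cluster 21 (led by F13a1 and Pf4) held 179, 40, 618 and 1647 cells and gave 8.47%, 3.67%, 45.1% and 80.0% of all Tnfrsf11a UMIs, at 233, 225, 221 and 181 CPM. Cluster 2 (led by Mmp12 and Hbb-bs), which contains the osteoclast-like cells, held 855, 564, 471 and 274 cells, or 8.23%, 8.66%, 5.95% and 2.71% of the kept cells, and had 201, 145, 168 and 102 CPM, with 28 dpa at 0.508-fold (0.440 to 0.583), just inside the line. Cluster 0 (led by H2-Aa and H2-Ab1) had 133, 101.7, 129.6 and 64.4 CPM and was past it at 28 dpa (0.483-fold). Endothelium was the other site of RANK: lymphatic endothelial-like cells had 91.1, 81.8, 71.2 and 66.4 CPM and vascular ones 52.9, 35.2, 32.4 and 42.3 CPM. The lymphatic values at 17 and 28 dpa rest on 35 and 38 cells. Mesenchymal cells, at 0.652 to 0.707 CPM, gave almost none.

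Nfatc1, the transcription factor that RANK signalling induces, was not restricted to the osteoclast lineage. Over all cells it had 73.6, 68.6, 75.0 and 65.6 CPM. Lymphatic endothelial-like cells had 215, 158, 178 and 249 CPM, above every other class but the osteoclast-like cells in the unamputated and 28 dpa libraries. Their values at 17 and 28 dpa rest on 35 and 38 cells, too few for a ratio. Vascular endothelial-like cells had 83.6, 65.6, 94.4 and 101 CPM, tenocyte-like cells 95.5, 69.5, 108 and 124, and fibroblast-like cells 75.9, 83.1, 87.9 and 85.0, all inside the line. In the phagocyte pool it was at 113, 95.4, 81.2 and 48.9 CPM, highest in the unamputated library and past the line at 28 dpa (0.435-fold, 0.401 to 0.470). Cluster 2 alone, at 193, 158, 156 and 101.5 CPM, was just inside the line at 28 dpa (0.526-fold).

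Sub-clustering of cluster 2 gave 14 sub-clusters, of which 1 was osteoclast-like by a list of 7 markers that holds no member. Its leading genes included Mmp9, a matrix protease, Slc9b2, a sodium-proton exchanger of osteoclasts, and Rufy4. It held 51, 21, 19 and 9 cells, or 0.491%, 0.322%, 0.240% and 0.0889% of the kept cells. The size of these shares depends on settings: the first 3 were 1.22%, 0.760% and 0.497% with the looser filter on cells, the first 2 were 0.770% and 0.599% at Leiden resolution 2, the 12 dpa share was 0.558% with the stricter filter, and at resolution 0.5 no such sub-cluster was found. The share at 28 dpa (0.0407 to 0.169) lay below that of the unamputated library (0.366 to 0.645), and the intervals of neighbouring time points overlapped. The 7 markers summed to 3243, 3371, 2875 and 4975 CPM in these cells, with Calcr at 0 at 12 dpa, and the 9 osteoblast or osteocyte markers to 11.0 to 24.5 CPM. Of the 7, 5 had a UMI in at least 25% of the 100 cells. Mmp9, at 2161 CPM, and Slc9b2, at 865, were the highest, and Oscar, in 18% of cells, and Calcr, in 3%, the lowest. The median depth of the osteoclast-like cells was 17773 to 24011 UMIs, above that of their libraries.

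These 100 cells, 0.286% of the total, held 47.9% of all Acp5 UMIs, 52.6% of Ocstamp, 37.1% of Atp6v0d2 and 14.9% of Ctsk. Acp5, tartrate-resistant acid phosphatase, was at 8104, 8405, 6917 and 12162 CPM there. Ctsk, cathepsin K, the collagenolytic protease of the resorption pit, was at 14705.5, 13551, 12739.7 and 20818 CPM. Both were highest in the 9 cells of 28 dpa. Atp6v0d2, a proton pump subunit also needed for fusion, was at 1862, 1613, 1983 and 1596 CPM. Ocstamp and Dcstamp, membrane proteins of cell fusion, were at 153, 150.6, 200 and 193 CPM and at 209, 277, 164 and 242 CPM. None of these 5 moved the same way at every step of the time course. Nfatc1 was at 776, 759, 715 and 514 CPM and Tnfrsf11a at 336, 227, 356 and 139, each lowest at 28 dpa, where Tnfrsf11a rests on 23 UMIs. Tnfsf11, Tnfrsf11b and Csf1 had no UMI in any of the 100 cells.

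Within cluster 2 the members separated the osteoclast-like cells from the other 2064 cells to different degrees. Since a cluster's own cells are compared, these values are a description. Acp5 was at 8237 CPM with a UMI in 100% of the osteoclast-like cells, against 253 CPM and 45.3% in the rest. Ctsk was at 14601 against 1243 CPM, Atp6v0d2 at 1823 against 166, and Ocstamp at 165 against 5.12, with a UMI in 81.0% and 4.12% of cells. Dcstamp was less selective, at 214 against 58.8 CPM, and Tnfrsf11a least, at 307 against 160.2. Cluster 0, whose leading genes are MHC class II genes, gave 921, 486, 339 and 177 Dcstamp UMIs, at 133, 150.3, 133 and 175 CPM, and the whole of cluster 2 gave 820, 412, 377 and 223. Cluster 0 thus gave more in the unamputated and 12 dpa libraries and cluster 2 more at 17 and 28 dpa.

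**Figure D4:**
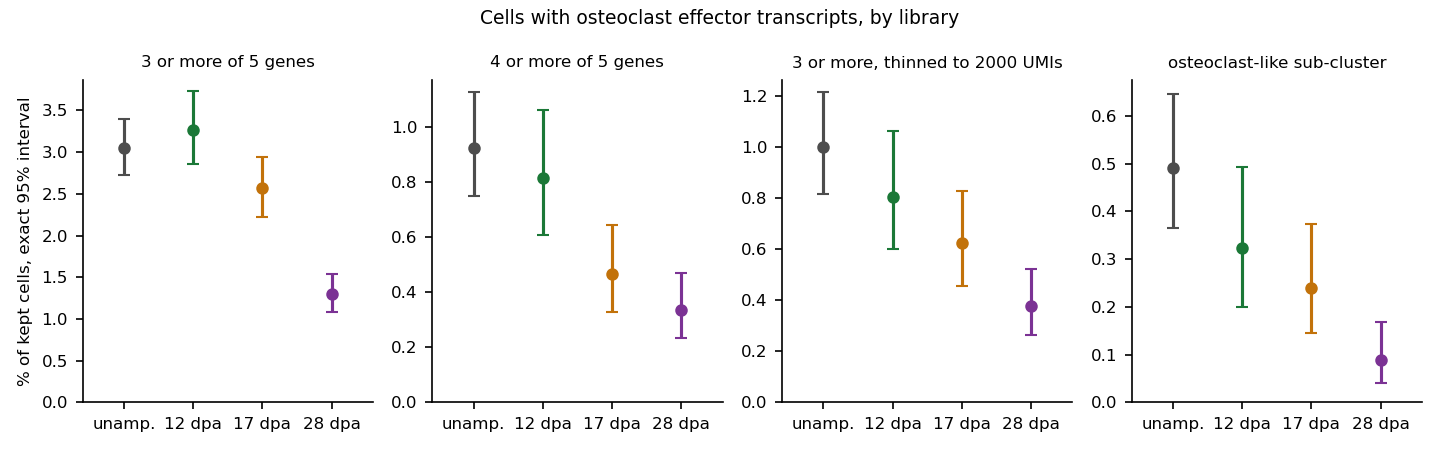
Percent of kept cells by library, with exact 95% intervals, in 4 panels: cells with a UMI of at least 3 of the 5 effector genes, of at least 4, of at least 3 after thinning each cell to 2000 UMIs, and cells of the osteoclast-like sub-cluster. The 28 dpa library is lowest in every panel.

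Because clusters can split differently, cells were also counted gene by gene. Cells with a UMI of at least 3 of the 5 effector genes made up 3.05% (2.73 to 3.399), 3.27% (2.85 to 3.73), 2.56% (2.23 to 2.94) and 1.29% (1.08 to 1.53) of the libraries, from 317, 213, 203 and 131 cells. After each cell was thinned to 2000 UMIs, which left out 307, 314, 368 and 613 shallower cells, the shares were 1.00%, 0.806%, 0.623% and 0.378%. The 28 dpa library was lowest both ways, and its thinned interval (0.265 to 0.524) did not overlap that of the unamputated library (0.816 to 1.22). At least 4 genes were found in 96, 53, 37 and 34 cells, and all 5 in 40, 18, 14 and 11. As a background, 0 of 3622 endothelial cells (median depth 4307 to 10892 UMIs by library), which allows up to 0.0828%, and 2 of 4608 keratinocytes (median depth 9164 to 17452) reached 3 genes. Of the 864 cells with at least 3, 673 were in the phagocyte pool, 501 of them in cluster 2, and 188 were mesenchymal. Thinning left 9 of the mesenchymal ones.

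At the level of whole libraries, 0 of 9 measured members were past the 2-fold line at 12 dpa and at 17 dpa, and 2 of 9 were lower at 28 dpa, Dcstamp (0.437-fold, 0.393 to 0.485) and Tnfsf11. Among all measured genes the shares past the line were 3.62%, 3.35% and 8.39%, and 6.47% were lower at 28 dpa. A gene counts as measured with at least 5 CPM in the higher library, and the line is a log2 ratio of 1 after adding 1 CPM. Ocstamp, at 2.37, 1.93, 1.62 and 0.902 CPM, was not measured at this level. The ratios share the unamputated library. Their median over all genes was -0.22, -0.10 and -0.17, against -0.28, 0.03 and -0.16 over the members. With scaling by the median ratio of genes, both 28 dpa members came inside the line. In whole libraries, fewer cells of a type and less RNA per cell cannot be told apart.

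In the phagocyte pool 4 of the 5 effector genes were lowest at 28 dpa. Acp5 was at 511, 481, 283 and 197 CPM, or 0.386-fold at 28 dpa (0.371 to 0.401). Atp6v0d2 was at 181, 137, 118 and 81.9 CPM (0.452-fold), Ocstamp at 12.4, 11.1, 7.59 and 3.74 (0.303-fold) and Dcstamp at 69.4, 76.0, 46.9 and 26.7 (0.385-fold). Together with Nfatc1 these are 5 of 8 measured members lower at 28 dpa, where 6.95% of all measured genes were lower and 11% were past the line either way. With means over cells in place of sums, 3 members were. At 12 and 17 dpa it was 0 of 8, with backgrounds of 2.65% and 3.73%. Ctsk, at 1213, 895, 910.4 and 971 CPM, was lowest at 12 dpa and not past the line in any library.

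Inside cluster 2 the same 4 effector genes were not past the line, and Nfatc1, given above, was just inside it. Acp5 was at 1040 CPM in the unamputated library and at 853, 721 and 1114 after it, Atp6v0d2 at 344, 236, 261 and 415, Dcstamp at 68.4, 70.8, 69.2 and 103.9, and Ocstamp at 20.5, 15.6, 18.9 and 16.8. Of the 2392 Acp5 UMIs of cluster 2 at 28 dpa, 380 were outside the 9 osteoclast-like cells, as were 4 of the 36 Ocstamp UMIs. Outside those cells Acp5 was at 238 and 192 CPM in the unamputated and 28 dpa libraries. Ocstamp there was past the line at 28 dpa (0.368-fold, 0.0972 to 0.994), from 59 and 4 UMIs. Atp6v0d2, at 171 and 316 CPM, and Dcstamp, at 52.4 and 92.4, were inside it. In the whole of cluster 2 no member was past the line at 17 or 28 dpa (background 2.49% and 8.73%), and 1 of 8 was at 12 dpa (2.65%), Csf1 at 6.92 and 16.1 CPM. Cluster 2 gave 855, 564, 471 and 274 of the cells of the phagocyte pool and cluster 21, where Acp5 is at 30.4 to 57.0 CPM, gave 179, 40, 618 and 1647. The part of this make-up in the values of the pool was not tested. The erythroid marker list in the pool summed to 223 CPM in the unamputated library and to 0.978, 0.443 and 0.123 in the others, and its part in the result was not tested.

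**Figure D5:**
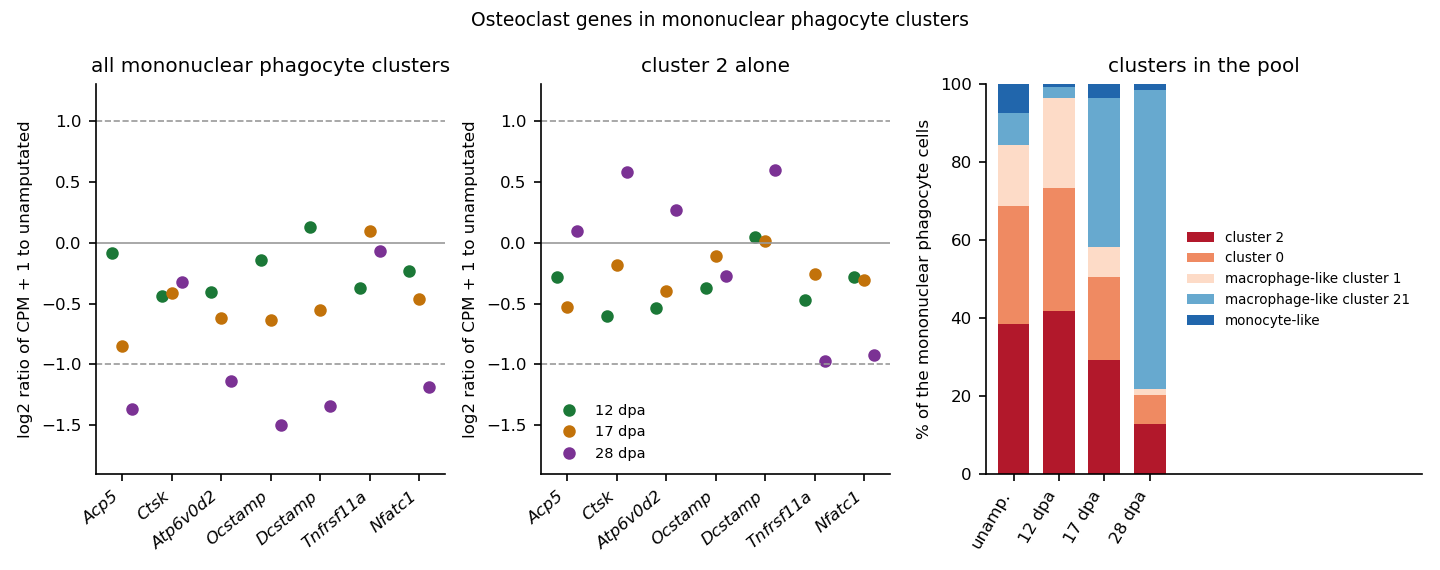
Log2 ratio of CPM (plus 1) to the unamputated library for 7 members in the phagocyte pool and in cluster 2 alone, with dashed lines at 1 and -1, and stacked bars of the clusters that make up the pool (percent of its cells). In the pool 5 members lie below -1 at 28 dpa, while in cluster 2 none does.

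Ctsk outside the osteoclast-like cells differed among the phagocyte clusters. In cluster 21 it was at 69.3, 213, 225 and 564 CPM, 3.25-fold higher at 17 dpa (2.73 to 3.88) and 8.14-fold higher at 28 dpa (6.90 to 9.66). Acp5 there was at 34.2, 30.4, 30.4 and 57.0 CPM, highest at 28 dpa too (1.67-fold) but inside the line, and the difference between the genes was not tested. Cluster 2 without its osteoclast-like cells had 1159, 876, 1372 and 2382 CPM of Ctsk, 2.06-fold higher at 28 dpa (1.99 to 2.13). Those cells, 804 in the unamputated library and 265 at 28 dpa, were not the same mix. Sub-cluster 8 held 3 and 35 of them, sub-cluster 3, named fibroblast-like, 16 and 29, and sub-cluster 10, led by Mcpt4 and Cma1, 29 and 39. Sub-cluster 0, macrophage-like, held 111 and 1. The part of this make-up in the Ctsk value was not tested. Cluster 1, macrophage-like, had 239, 357 and 603 CPM up to 17 dpa, 2.53-fold higher there (2.28 to 2.80), and only 34 cells at 28 dpa. Cluster 0 was at 48.97, 50.1, 33.3 and 42.6 CPM and inside the line in every library. Classes that give little Ctsk moved too: vascular endothelial-like cells had 6.35, 8.26, 14.8 and 30.4 CPM, 4.78-fold higher at 28 dpa (3.59 to 6.37), and T or NK-like cells 9.97, 16.9, 26.3 and 35.4. The part of Ctsk RNA from other cells in these values was not tested.

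The mesenchymal clusters gave as much Ctsk as the phagocyte pool in the unamputated library (31954 and 31849 UMIs of 66688) and more in the other libraries. Fibroblast-like cells had 762, 689, 995 and 1118 CPM and osteoblast-like cells 616, 693, 668 and 674, both inside the line. Within the fibroblast-like class, cluster 9 was at 799, 572, 390 and 342 CPM, lower at 17 dpa (0.488-fold, 0.451 to 0.527) and 28 dpa (0.428-fold, 0.381 to 0.480), while cluster 13 was at 809, 1029, 1262 and 1293, inside the line. Tenocyte-like cells had 866, 802, 1062 and 1871 CPM, 2.16-fold higher at 28 dpa (2.10 to 2.22), where the joint lining marker list was at 495 CPM against 55.9 in the unamputated library; its part was not tested. That call was lost under 6 of 11 alternatives, with log2 ratios of 0.86 to 1.20. Over the mesenchymal pool, 2 of 7 measured members were past the line at 12 dpa (Tnfsf11 and Csf1, background 5.29%), 1 at 17 dpa (Atp6v0d2, 2.65%) and 1 at 28 dpa (Tnfsf11, 9.01%). The 17 dpa call was lost with means over cells and with a pseudocount of 5 CPM. Atp6v0d2 was low there, at 5.03, 2.39, 12.0 and 5.21 CPM.

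By class, the counts past the line were read against the same background. Osteoblast-like cells had 3 of 6 at 12 dpa (14.5%), 2 of 7 at 17 dpa (4.16%) and 1 of 7 at 28 dpa (9.9%). Tenocyte-like cells had 1 of 6 (1.65%), 1 of 7 (3.24%) and 3 of 6 (11%), and fibroblast-like cells 1 of 7 each time (4.24%, 2.65% and 9.85%). Schwann-like cells had 0 of 4 (4.78%), 2 of 4 (10.6%) and 3 of 4 (12.6%), with Ctsk added at 28 dpa, at 79.1 CPM in the unamputated library and 172 at 28 dpa.

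Keratinocytes were a site of Acp5 outside the osteoclast lineage. They had 81.3, 116, 79.2 and 103 CPM and a UMI in 65.8%, 65.5%, 53.6% and 52.5% of cells, and gave 15.8% of all Acp5 UMIs. Endothelial cells, as a background, were at 2.21 to 3.01 CPM with a UMI in 1.44% to 2.67% of cells. Ctsk in keratinocytes was at 4.59, 6.92, 13.03 and 18.8 CPM, which is 2.84-fold higher at 17 dpa (2.19 to 3.67) and 4.09-fold higher at 28 dpa (3.33 to 5.05), and below the 6.84, 7.92, 14.3 and 31.2 of endothelium in every library.

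Other pathway genes, in 5 lists of 20, 16, 11, 8 and 16 genes, were counted with the same 2-fold line. The share of all measured genes of the phagocyte pool past it at 28 dpa was 6.95% lower and 11% either way. Cluster 21 made up 179 of the 2218 cells of this pool in the unamputated library and 1647 of 2145 at 28 dpa, and cluster 2 made up 855 and 274. The part of this make-up in the pathway values of the pool, here and in the next paragraph, was not tested. In the phagocyte pool no gene of any list was past the line at 12 dpa. At 28 dpa 3 of 18 measured genes of RANK and M-CSF signalling were lower, and none was higher: Prdm1, a repressor that supports osteoclast formation, went from 47.3 to 6.75 CPM, Src, the kinase of the resorbing border, from 40.6 to 7.49, and Nfkb2 was lower as well. The M-CSF receptor Csf1r, at 415 and 652 CPM, and the lineage factors Spi1, at 395 and 417, and Mitf, at 409.5 and 386, stayed inside it. Of 16 genes of acid secretion and matrix degradation, 2 were lower, a count not far above that background, the proteases Mmp14, from 314 to 54.8 CPM, and Mmp9, from 100.5 to 47.9. The pump subunit Tcirg1, at 116 and 63.5 CPM, stayed inside.

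Of 9 measured fusion and adhesion genes, 3 were lower at 28 dpa, among them Slc9b2, from 58.3 to 15.96 CPM, and the integrin Itgb3, from 14.2 to 3.62, while the tetraspanin Cd81 was higher, from 47.5 to 293. Of 7 measured brakes on osteoclast formation, Bcl6, from 90.1 to 36.6 CPM, and Tnfaip3, from 142 to 70.5, were lower. Irf8, a lineage factor that holds back osteoclast formation, lay just inside the line, at 121 and 61.1 CPM. Among 9 inducers, 5 were lower, led by the semaphorin Sema4d, from 124 to 14.3 CPM, and the cytokine Il1b, from 329.5 to 122. The medians of the 5 lists were log2 ratios of -0.32, -0.12, -0.71, -0.82 and -1.002, against -0.10 over all genes.

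In mesenchymal cells other genes of these lists passed the line, where 5.29%, 2.65% and 9.01% of all measured genes were past it either way at 12, 17 and 28 dpa. At 12 dpa 3 of 13 signalling genes were lower, with Fos from 742 to 272 CPM, and so were 3 of 7 brakes and 2 of 11 inducers, the vitamin D receptor Vdr and the chemokine Cxcl12. At 17 dpa 1 of 11 inducers, the cytokine Il6, was higher, from 7.21 to 25.3 CPM. For 28 dpa genes are given by name only, with no count to set against the 9.01%. Il6 and Pthlh, which encodes the RANKL-inducing hormone PTHrP (19.5 to 45.4 CPM), were higher. The cathepsin inhibitor Cst3 was higher too, from 1795 to 5542 CPM, and the proteases Mmp9 (8.76 to 0.528) and Mmp14 (1306 to 548) were lower. In osteoblast-like cells alone, Cst3 went from 3560 to 22993 CPM and Mmp9 from 32.5 to 1.81, while the osteoblast marker list went from 6828 to 18146 CPM, and its part in the result was not tested.

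Genes with the pattern most like a member's were ranked by Pearson's r of log2 CPM over 72 sums, each 1 class in 1 library, of 21 classes; sums of a library share its depth and these values carry no test. Tnfsf11 was most like Myo16 (r = 0.89), Mmp16 (0.86) and Podnl1 (0.81), and Tnfrsf11b most like Mn1 (0.77), Crispld1 (0.77) and Ccn2 (0.74). Csf1 had Eml1 (0.76), Tnfrsf11a had Rab5c (0.85), and Nfatc1 had Itgb3 (0.73). Among effectors, Ctsk was most like Bdh2 (0.87), Acp5 like Taf10 (0.81), Atp6v0d2 like Gm30329 (0.84), Dcstamp like Cd207 (0.89) and Ocstamp like Strip2 (0.78). Between members the highest value was that of Ocstamp with Dcstamp (0.85).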

How the data were processed

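Droplet libraries (10x 3′ v3 chemistry) were made from dissociated, live-sorted P2 digit cells. The deposited values are UMI counts per gene and barcode, made by the authors with Cell Ranger 7.1.0 on mm10, per the submitters' processing notes. The 4 tables held 92313847 to 197140774 UMIs in 8813 to 16045 barcodes. Barcodes under 500 genes or 1000 UMIs, or with more than 10% of UMIs from mitochondrial genes, were left out. Doublets were predicted with Scrublet (in scanpy 1.11.5) at 0.8% per 1000 barcodes, which marked 7.05% to 12.8% of barcodes for removal. Counts were clustered jointly without batch correction (2000 variable genes, 30 principal components, 15 neighbours, Leiden resolution 1), leaving out 81 genes, the members and the pathway genes. A cluster was named from at least 3 markers of 25 lists. Counts were summed per class and library, and ratios of CPM to the unamputated library were taken only in classes of at least 50 cells in both. Intervals are exact (Clopper-Pearson for shares, Poisson for counts and their ratios), and the ratios were tested on simulated data. The software was Python 3.11.15, numpy 2.4.6, scipy 1.17.1, pandas 2.3.3 and igraph 0.11.9.

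The members and lists were chosen with earlier results of these data known. All 10 members are given. From each pathway list at most the 2 highest and 2 lowest ratios past the 2-fold line are named (some items are not reported here), and for likeness the 3 most correlated genes per member were found among genes of at least 20 CPM. Csf1r, Spi1, Mitf, Tcirg1 and Irf8 were named after their values were seen. The alternatives were other cell filters, no doublet removal, other resolutions, all genes kept in the clustering, cells classed singly, median-ratio scaling, means over cells, a pseudocount of 5 CPM and no minimum CPM.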

Additional observations from a re-analysis of the deposited data

Results flagged for a closer look

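Some members moved past the 2-fold line in opposite directions in 2 classes at the same time point. Each class is 1 library per time point, and the difference between the classes was not tested. Atp6v0d2 at 12 dpa was 3.12-fold higher than in the unamputated library in osteoblast-like cells, from 28 and 7 UMIs, and 0.305-fold in fibroblast-like cells. In the 50 osteoblast-like cells of 12 dpa the chondrocyte marker list was at 2320 CPM against 202. Of the fibroblast-like cells 513 of 942 were cluster 13 in the unamputated library and 506 of 750 were cluster 9 at 12 dpa. Neither cluster was past the line, with cluster 13 at 0.529-fold and cluster 9 below the level needed for a call, and the part of the marker list and of this make-up was not tested. Tnfsf11 was 2.70-fold higher in Schwann-like cells and 0.142-fold in fibroblast-like cells at 17 dpa, and 4.45-fold and 0.116-fold at 28 dpa. Its Schwann-like UMIs came from 15 cells in the unamputated library, 11 at 17 dpa and 21 at 28 dpa. Tnfrsf11b at 17 dpa was 6.93-fold higher in osteoblast-like cells and 0.389-fold in vascular endothelial-like cells, where its levels were 5.43, 7.97, 2.11 and 7.60 CPM. Csf1 at 17 dpa was 2.66-fold higher in Schwann-like cells and 0.265-fold in macrophage-like cluster 21, from 16 and 13 UMIs. At 28 dpa Csf1 was 2.82-fold higher in Schwann-like cells and 0.248-fold in T or NK-like cells, the latter from 3 UMIs. The 28 dpa rise of Tnfsf11 in Schwann-like cells kept a log2 ratio of 1.84 to 2.19 over the alternatives, while at 17 dpa it ran from 0.46 to 2.04.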

How the results depend on the processing

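No paired analysis was possible because each group is 1 library. No past-the-line ratio reversed under any alternative. Of the members' ratios to the unamputated library, 814 values stayed within their counting interval and 296 moved; the cause was not tested. Shares of cells depend on the definition. With the looser filter, the share with at least 3 effector genes at 12 dpa was 2.80%, and with the stricter one the 4 shares were 3.75%, 4.30%, 3.05% and 1.67%. A demand of 2 genes gave 14.0%, 16.1%, 16.4% and 11.4%, so 28 dpa stayed lowest while the order of the others changed. A demand of 4 gave 0.924%, 0.814%, 0.467% and 0.336%, and thinning to 2000 UMIs 1.00%, 0.806%, 0.623% and 0.378%. The osteoclast-like share, whose alternatives were chosen after seeing the data, was 1.22%, 0.760% and 0.497% in the first 3 libraries with the looser filter. It was 0.558% at 12 dpa with the stricter filter, and 0.770% (unamputated) and 0.599% (12 dpa) at Leiden resolution 2. At resolution 0.5 of either clustering step no osteoclast-like sub-cluster was found, so it gave no value. Members past the line over all cells at 28 dpa numbered 0 with median-ratio scaling, 0 with a pseudocount of 5 CPM and 1 with means over cells. In the phagocyte pool at 28 dpa there were 3 with means over cells and 5 with median-ratio scaling. For mesenchymal cells at 12 dpa there were 1 with the stricter filter, 0 with median-ratio scaling and 1 with a pseudocount of 5 CPM, and at 17 dpa 0 with means over cells and 0 with that pseudocount. Depth limits Ocstamp, with 679 UMIs in all, and every value of osteoclast-like cells at 28 dpa, which are 9 cells.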

Other observations

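The 673 phagocytes with at least 3 of the 5 effector genes were set against 8618 other myeloid cells, neutrophil-like cells and cluster 19 included, for genes that took no part in choosing them. As a description with no test, genes with high ratios, among those of at least 100 CPM in these cells, included Slc9b2 (39.7-fold), Chchd10 (13.7-fold), Bdh2 (11.8-fold) and Gpnmb (8.98-fold), an osteoclast and macrophage glycoprotein. Others were Ckb (8.21-fold), a creatine kinase, the lysosomal protease Ctsl (4.599-fold), Sdc1 (4.34-fold), Mfge8 (4.25-fold) and Esd (3.18-fold). Bdh2 was also the gene most like Ctsk across the class sums.

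Barcodes taken out before the analysis also held effector genes. At least 4 of the 5 were found in 16 of 1560, 2 of 428, 5 of 775 and 9 of 1552 barcodes removed as doublets, and in 18 of 4091, 11 of 1871, 4 of 1821 and 2 of 3576 removed by the filter on cells. In kept cells the numbers were 96, 53, 37 and 34.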
